A study of Mus musculus with 14 samples.

Results

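Cirbp and Rbm3, the genes of a pair of RNA-binding proteins whose messages rise when mammalian cells are cooled, were examined in mouse liver after sleep deprivation, together with the heat shock gene Hsph1. The genes were chosen by symbol, with earlier results of these data known. Their p-values and ranks are therefore not those of genes picked without regard to the data. Each was to be read from a probe set annotated to it alone, the brightest over all 14 arrays. Of the 2 genes, 1 was found that way among 22180 genes with such a probe set: Cirbp (probe set 17235227). The probe set that lists Rbm3 (17540027) also lists Rbm3-ps, a pseudogene, so its values belong to both and cannot be assigned to Rbm3 alone. It is called the Rbm3/Rbm3-ps probe set here and was tested among all 41345 probe sets.

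The liver RNA came from 7 sleep-deprived mice (1, 2, 3, 5, 6, 10 and 13) and 7 control mice (4, 7, 8, 9, 11, 12 and 14), all male C57BL/6J, an inbred strain. The study asked what 1 sleep deprivation of 6 h does to glucose tolerance and liver fat. The study kept mice awake by gentle handling, by cage changing or on a water platform, and the labels do not say which applied to these livers, nor the mice's age, the time of day, or the body or room temperature. They number the samples without stating that each is its own mouse. Each is counted as 1 mouse, and the p-values set the difference between groups against the spread between these samples. All values below are log2 expression as normalized by RMA, 1 array per mouse, with 7 arrays a group limiting the precision.

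Cirbp and Rbm3 are small proteins with a single RNA recognition motif followed by a glycine-rich tail. Mild cooling raises their messages and warming lowers them, opposite to heat shock genes, which the transcription factor HSF1 switches on when proteins unfold. In mouse liver, Cirbp and many heat shock messages follow the daily rhythm of body temperature in opposite phase. In mouse fibroblasts CIRBP protein binds the Clock message and supports its level. RBM3 is best known for protecting synapses and for promoting translation in cooled tissue. Hsph1 encodes HSP110, which helps HSP70 release its client proteins.

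The opposite regulation of Cirbp and Hsph1 has been linked in part to different promoter elements. For that reason the RefSeq sequence upstream of each start is shown (GRCm38.p6, 250 bases before an annotated start, read 5′ to 3′ on the gene's strand). The gene record of Cirbp spans 80165990 to 80172786 on chromosome 10, over all its transcripts. The window shown, chr10:80167589-80167838 on the plus strand, precedes one of the starts in the RefSeq promoter table and lies inside that span, since the record begins further upstream. Capitals mark a match to TCCCCGCC, the mild cold response element that SP1 binds in the Cirbp promoter. The record of Hsph1 spans 149616843 to 149636498 on chromosome 5, and the window shown, chr5:149636337-149636586 on the minus strand, likewise overlaps the upstream end of the record. Capitals there mark a match to TTCNNGAA, one of the forms of the pair of inverted units that HSF1 binds (the other searched was GAANNTTC).
Cirbp: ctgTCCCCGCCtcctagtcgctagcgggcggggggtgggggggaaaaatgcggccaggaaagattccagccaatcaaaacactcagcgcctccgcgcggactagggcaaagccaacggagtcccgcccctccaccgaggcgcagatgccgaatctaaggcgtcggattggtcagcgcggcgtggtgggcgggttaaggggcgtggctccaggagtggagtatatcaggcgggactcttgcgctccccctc
Hsph1: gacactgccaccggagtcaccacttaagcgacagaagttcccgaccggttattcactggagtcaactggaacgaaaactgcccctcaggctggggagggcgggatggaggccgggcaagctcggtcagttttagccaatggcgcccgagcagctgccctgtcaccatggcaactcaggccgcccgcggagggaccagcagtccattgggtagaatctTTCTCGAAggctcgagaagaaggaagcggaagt

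The cold element stood 247 to 240 bases before that Cirbp start, on the plus strand. Both strands were searched. Among 32851 windows of this length in the RefSeq table, 4.64% held it and 12.8% held a heat shock pair. The Cirbp window held 0 heat shock pairs, and the Hsph1 window held 1 pair, 33 to 26 bases before its start, and 0 cold elements. The other Cirbp window in the table had neither match. A plain GC box, GGGCGG on either strand, which overlaps neither match shown, occurred 3 times in the first Cirbp window, 2 times in the Hsph1 window and in 32.7% of all windows. A match is a description of the letters and shows no binding. Rbm3 lies on chromosome X (8138975 to 8145880), and no sequence of it is shown.

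Cirbp was lower in every sleep-deprived mouse than in any control mouse. Its log2 level had a lowest, median and highest value of 4.95, 5.07 and 5.32 in sleep-deprived mice, against 5.53, 5.64 and 5.72 in control mice. The groups did not overlap, and the gap between mouse 2, the highest of the sleep-deprived, and mouse 14, the lowest of the controls, was 0.216. The mean was 5.11 ± 0.146 in sleep-deprived mice and 5.63 ± 0.0578 in control mice (SD, n = 7 each). Cirbp fell by 0.52 ± 0.068 on the log2 scale (moderated SE, 95% interval -0.66 to -0.38), to 69.7% of the control level (limma over all 22180 genes, adjusted p = 4.38e-05). Of all genes tested 8.5% passed this threshold of 0.05, 4.62% as lower and 3.88% as higher, and 1.79% were lower with groups that did not overlap. A difference at least as low was found for 0.888% of genes, and by p-value Cirbp ranked 86 among those with a negative difference. The exact permutation test over all 3432 ways of dividing the 14 arrays gave a two-sided p of 0.000583, the smallest it can give.

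The Rbm3/Rbm3-ps probe set was lower too. Its log2 level had a lowest, median and highest value of 7.13, 7.24 and 7.58 in sleep-deprived mice, against 8.10, 8.17 and 8.30 in control mice. All 7 sleep-deprived mice lay below all 7 controls, with a gap of 0.52 between mouse 6 and control mouse 12. The mean was 7.30 ± 0.146 in sleep-deprived mice and 8.18 ± 0.0696 in control mice (SD, n = 7 each). It fell by 0.88 ± 0.063 on the log2 scale (moderated SE, 95% interval -1.01 to -0.75), to 54.4% of the control level (limma over all 41345 probe sets, adjusted p = 1.37e-06; exact permutation test, two-sided, p = 0.000583). In that fit 2.05% of probe sets were called lower, and 1.09% were lower with groups that did not overlap. Among probe sets with a negative difference it ranked 1 by p-value, and 0.126% of all probe sets had a difference at least as low. How much of the signal comes from the message of Rbm3 and how much from Rbm3-ps was not tested.

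**Figure D1:**
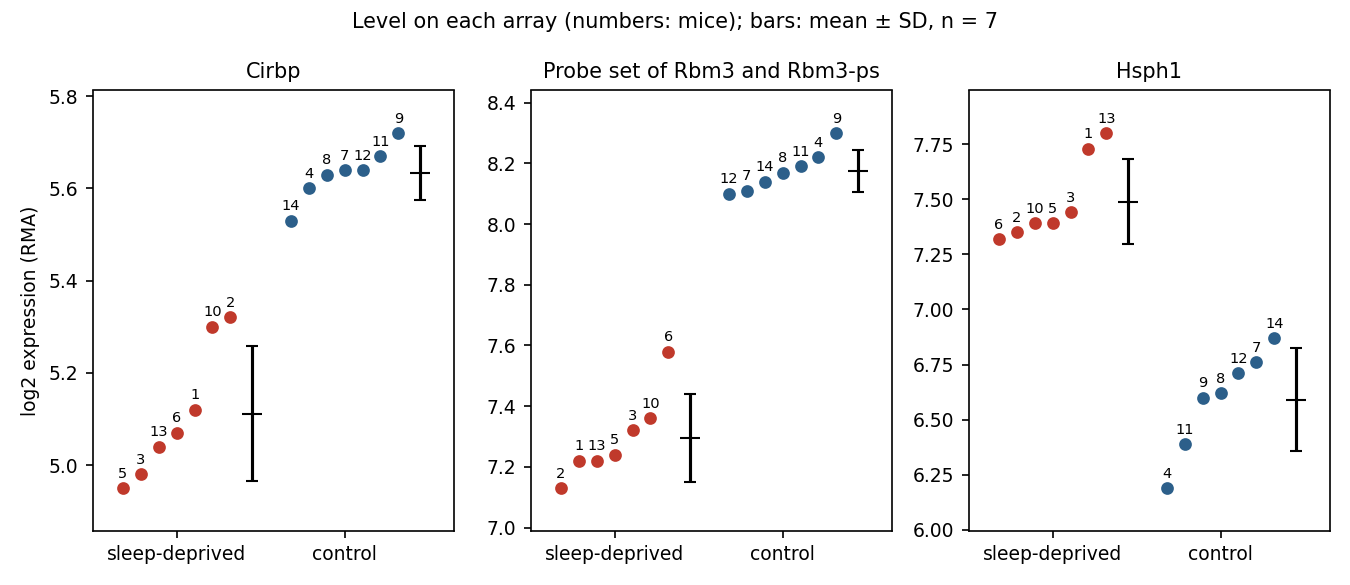
Log2 expression of Cirbp, the Rbm3/Rbm3-ps probe set and Hsph1 on each array (points, with the mouse's number), sleep-deprived mice left and control mice right, with the mean ± SD of 7 mice beside each group. In each panel the groups are apart: Cirbp reached at most 5.32 in sleep-deprived mice and at least 5.53 in controls, the Rbm3/Rbm3-ps probe set at most 7.58 and at least 8.10, and Hsph1 was at least 7.32 in sleep-deprived mice and at most 6.87 in controls.

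The measured log2 difference was smaller for Cirbp than for the Rbm3/Rbm3-ps probe set. The log2 level of Cirbp minus that of the probe set averaged -2.19 ± 0.224 in sleep-deprived mice and -2.54 ± 0.0632 in control mice (SD, n = 7 each). Levels of different probe sets have no common scale, so only the shift between groups is read, and it was 0.36 ± 0.088 (SE; exact permutation test, two-sided, p = 0.00175). The probe sets differ in brightness, with means of 5.37 and 7.74 over all arrays, and the part of probe response in this shift was not tested, so it is a difference between signals and not shown to be one between messages. In 6 of 7 sleep-deprived mice this quantity was above all controls. The spread of both was wider after sleep deprivation than in controls, with an SD ratio of 2.53 for Cirbp and 2.10 for the probe set, a difference that was not tested.

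The order of the sleep-deprived mice was not the same for both. Mouse 2 had the highest Cirbp level of its group, at 5.32, and the lowest level of the Rbm3/Rbm3-ps probe set, at 7.13. Mouse 6 had the highest level of the probe set, at 7.58, and the median Cirbp level, at 5.07. Within the sleep-deprived group the Pearson correlation between them was -0.169 (exact permutation test, two-sided, p = 0.747, adjusted p = 0.747 over 6 relations), with a Spearman rho of -0.214 (exact permutation p = 0.662, adjusted p = 0.662). Within the controls it was 0.522 (exact permutation p = 0.22, adjusted p = 0.66), with a rho of 0.286 (exact permutation p = 0.556, adjusted p = 0.662). Without the mice farthest from the median of the probe set, r was -0.846 in the sleep-deprived (without mice 6 and 10) and 0.104 in controls (without mice 9 and 12). A relation within groups was not shown in either direction.

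Hsph1 moved the other way. Its log2 level had a lowest, median and highest value of 7.32, 7.39 and 7.80 in sleep-deprived mice, against 6.19, 6.62 and 6.87 in control mice. The groups did not overlap, as for 1.34% of all genes in this direction. The mean was 7.49 ± 0.193 in sleep-deprived mice and 6.59 ± 0.23 in control mice (SD, n = 7 each). Hsph1 rose by 0.90 ± 0.099 on the log2 scale, 1.86-fold (limma, adjusted p = 6.54e-06).

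Whether mice with more Hsph1 had less Cirbp was asked within each group, because the opposite shifts between groups would by themselves give a negative correlation over all mice. In sleep-deprived mice the Pearson correlation of Cirbp with Hsph1 was -0.214 (exact permutation test, two-sided, p = 0.71, adjusted p = 0.747) and rho was -0.214 (exact permutation p = 0.662, adjusted p = 0.662). In controls r was -0.253 (exact permutation p = 0.583, adjusted p = 0.747) and rho was -0.286 (exact permutation p = 0.556, adjusted p = 0.662). Left without the pair of mice farthest from the median of Hsph1, r was -0.283 in the sleep-deprived (without mice 1 and 13) and -0.399 in controls (without mice 4 and 14). Control mouse 14 had the lowest Cirbp and the highest Hsph1 of its group, at 5.53 and 6.87, and without it r in controls was 0.27.

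The Rbm3/Rbm3-ps probe set had larger negative values against Hsph1. In sleep-deprived mice r was -0.411 (exact permutation test, two-sided, p = 0.381, adjusted p = 0.747) and rho was -0.357 (exact permutation p = 0.444, adjusted p = 0.662). In controls r was -0.534 (exact permutation p = 0.218, adjusted p = 0.66) and rho was -0.75 (exact permutation p = 0.0663, adjusted p = 0.398). Without the farthest pair of mice r was -0.422 in the sleep-deprived (without mice 1 and 13) and -0.502 in controls (without mice 4 and 14). Without control mouse 9, which had the highest level of the probe set, r in controls was -0.865 (exact permutation p = 0.0278, not adjusted). None of the 6 relations passed over all mice of a group. As a description over both groups, with each mouse's deviation from its own group mean (14 arrays), r with Hsph1 was -0.199 for Cirbp and -0.415 for the probe set. Across 5573 genes the middle 95% of such values ran from -0.435 to 0.487 with Cirbp and from -0.599 to 0.526 with the probe set, so that neither value of Hsph1 lay outside its range.

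**Figure D2:**
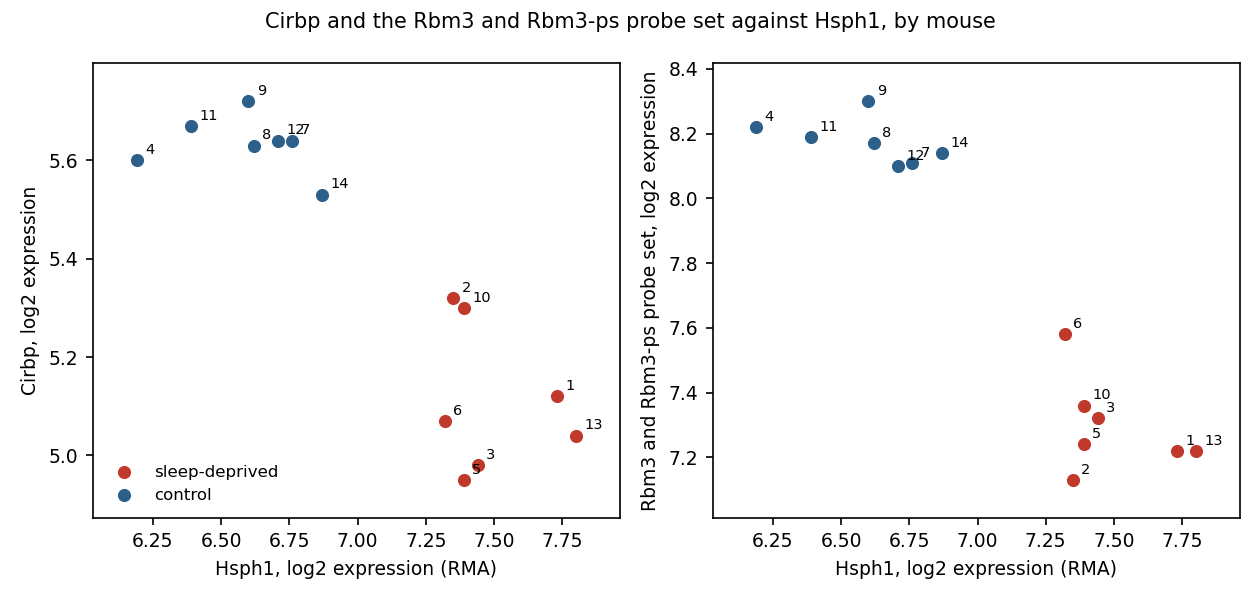
Log2 expression of Cirbp (left) and of the Rbm3/Rbm3-ps probe set (right) against Hsph1, a point for each mouse with its number, sleep-deprived mice and control mice in different colours. The groups lie in opposite corners, and within a group Cirbp and Hsph1 had a correlation of -0.214 (sleep-deprived) and -0.253 (control).

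Other heat shock genes rose beside Hsph1. Of 23 genes listed as HSF1-induced, Hsph1 among them, 21 were measured, and 11 rose and 0 fell, with a median log2 difference of 0.26 against -0.0048 over all genes, of which 3.88% rose and 4.62% fell. Hspb1, a small heat shock protein, rose by 0.59 ± 0.080 (limma, adjusted p = 6.22e-05), or by 0.28 when its 2 probe sets were averaged. The co-chaperones Bag3 and Chordc1 rose by 0.59 ± 0.085 and 0.60 ± 0.095. Hspa1a and Hspa1b, near-identical genes of the inducible HSP70 that may share signal, were at 0.34 ± 0.11 and 0.45 ± 0.18 and did not pass (limma, adjusted p = 0.0732 and 0.157). The Hspa1a signal was dim, with a mean of 3.27 in sleep-deprived and 2.94 in control mice, below the array medians, where RMA compresses differences. Hspa1a passed without sleep-deprived mouse 5 (adjusted p = 0.0402), and Hspa1b without control mouse 7 (0.0407) or with sample number as a covariate (0.0462). The heat shock factor genes Hsf2, Hsf4 and Hsf5 and the HSF1-binding protein gene Hsbp1 did not pass, with differences between -0.089 and 0.011, and Hsf1 was not analysed here.

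Of 7 measured genes of proteins with a cold shock domain, a different RNA-binding fold from that of CIRBP, 1 rose and 1 fell, beside 3.88% and 4.62% of all genes, and the median difference was -0.020. Carhsp1, which binds and stabilises messages such as that of TNF, had a log2 level of 6.88, 6.99 and 7.04 (lowest, median and highest) in sleep-deprived mice, against 7.26, 7.40 and 7.49 in control mice. It was lower in all 7 sleep-deprived mice than in any control, as were 1.79% of all genes. Carhsp1 fell by 0.40 ± 0.053 (limma, adjusted p = 4.98e-05). Ybx3, a translational repressor, rose by 0.22 ± 0.059 (adjusted p = 0.0234), but missed the threshold when mouse 4, 5, 8, 11 or 13 was omitted (highest adjusted p 0.0566). With all mice it also missed the threshold among all probe sets (limma, adjusted p = 0.055).

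Splicing of many messages, Cirbp among them, depends on temperature, and CLK kinases are the known sensors that phosphorylate SR splicing factors less when cells warm. Among 22 measured genes of these kinases and factors, 4 rose and 2 fell, beside 3.88% and 4.62% of all genes, with a median of 0.079. Srsf6, an SR splicing factor, rose by 0.44 ± 0.059 (limma, adjusted p = 5.84e-05), or by 0.28 when its 2 probe sets were averaged. The SR protein kinases went apart, Srpk1 rising by 0.33 ± 0.070 and Srpk2 being at -0.33 ± 0.076 (adjusted p = 0.0037 and 0.00849). Luc7l2, which acts in 5′ splice site choice, was at -0.23 ± 0.056 and did not pass with both of its 2 probe sets averaged (-0.061, limma, adjusted p = 0.69). The CLK kinase genes measured, Clk1, Clk2 and Clk4, were between -0.085 and -0.0080 and did not pass. The array summarises a gene over its exons, so splicing itself was not measured.

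Of 29 other numbered Rbm genes measured, 2 rose and 1 fell, near the shares of all genes called (3.88% higher and 4.62% lower), and the median difference was 0.061. Rbm47, which works with the RNA-editing enzyme of apolipoprotein B, had a lowest, median and highest level of 5.29, 5.39 and 5.46 in sleep-deprived mice, against 5.41, 5.76 and 5.82 in control mice, and fell by 0.29 ± 0.073 (limma, adjusted p = 0.0148). The groups of Rbm47 overlapped through control mouse 9. Rbm8a, a core protein of the exon junction complex, rose by 0.33 ± 0.094 (adjusted p = 0.032), and Rbm27, an RNA-binding protein linked to nuclear RNA decay, by 0.17 ± 0.050 (adjusted p = 0.0384). Omitting single mice took Rbm8a past 0.05 in 6 of 14 cases (highest adjusted p 0.0771) and Rbm27 in 8 of 14 (highest 0.0921). With all mice, Rbm8a also missed the threshold with sample number as a covariate (limma, adjusted p = 0.0883) and among all probe sets (0.0802). Rbm27 missed it without the intensity trend of eBayes (limma, adjusted p = 0.0726), among all probe sets (0.066) and with arrays centred on their median (0.0523).

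Rbmx, the gene of a larger relative of CIRBP and RBM3, was at -0.14 ± 0.071 (limma, adjusted p = 0.293), and its retrogene Rbmxl1, which may share signal with it, at 0.095 ± 0.065 (adjusted p = 0.499). Of 24 measured genes of these relatives and of hnRNP proteins, which package nuclear RNA, 3 rose and 1 fell, beside 3.88% and 4.62% of all genes, with a median of -0.017. Hnrnpd, whose protein AUF1 speeds the decay of AU-rich messages, was at -0.38 ± 0.069 (adjusted p = 0.00119), but at -0.26 as the mean of its 2 probe sets, where it did not pass (adjusted p = 0.0969). Tardbp, the gene of TDP-43, rose by 0.42 ± 0.078 (adjusted p = 0.00137), and Hnrnpc by 0.19 ± 0.045 (adjusted p = 0.00813).

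**Figure D3:**
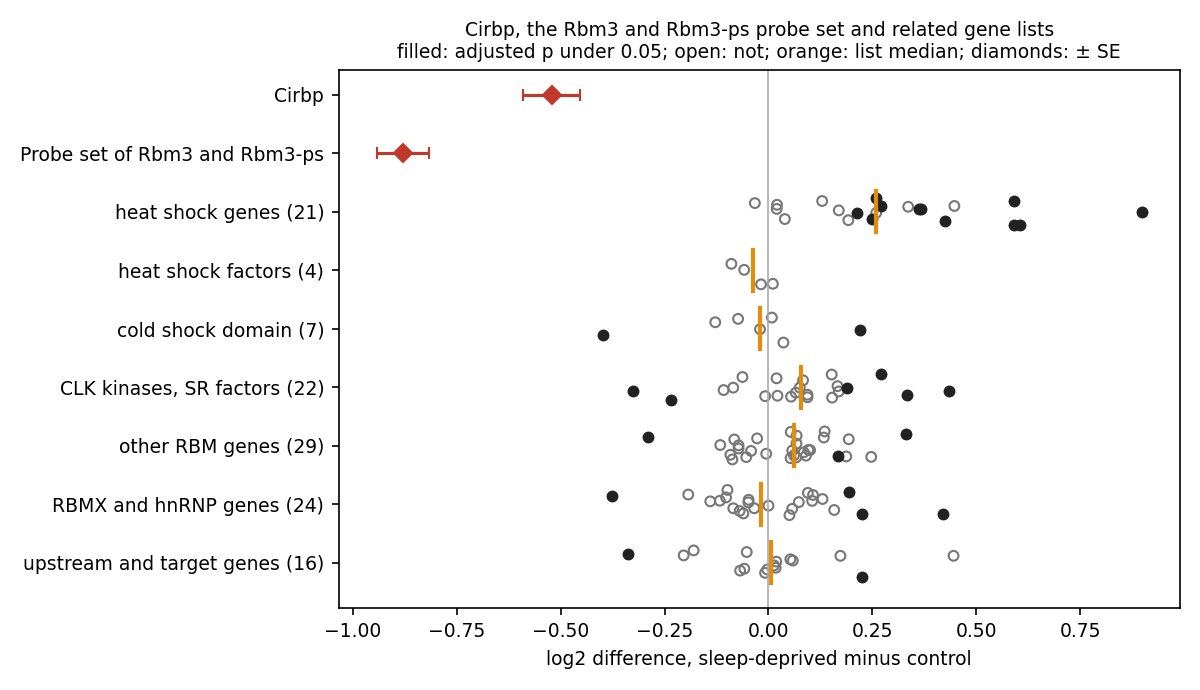
Log2 difference, sleep-deprived minus control, of Cirbp and the Rbm3/Rbm3-ps probe set (diamonds, ± SE) above the members of 7 gene lists (points, filled where limma's adjusted p was under 0.05, with the number measured and an orange line at the median). Cirbp at -0.52 and the probe set at -0.88 lie below every listed gene, the lowest of which was Carhsp1 at -0.40. The members and lists were chosen with earlier results of these data known, so this contrast is a description. The probe set was fitted among all probe sets, the genes among all genes.

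Of 16 measured genes known to act on these proteins or to be acted on by them, 1 was higher and 1 lower, near the shares of all genes called (3.88% and 4.62%), and the median difference was 0.0052. Plcg1, a phospholipase on the route by which TrkB signalling induces RBM3 in mouse neurons, had a lowest, median and highest level of 6.80, 7.09 and 7.18 in sleep-deprived mice, against 7.29, 7.38 and 7.50 in control mice. The groups did not overlap, as for 1.79% of all genes in this direction, and Plcg1 fell by 0.34 ± 0.061 (limma, adjusted p = 0.0011). Ntrk2, the gene of TrkB, was dim in liver at 2.48 in sleep-deprived and 2.68 in control mice, with a difference of -0.20 ± 0.075 (adjusted p = 0.113). Hnrnph1, which controls a regulatory exon of Rbm3, rose by 0.22 ± 0.060 (adjusted p = 0.022, and 0.0557 without sleep-deprived mouse 13).

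Clock, the circadian activator whose message CIRBP binds, did not fall with Cirbp. Its log2 level had a lowest, median and highest value of 8.79, 8.99 and 9.34 in sleep-deprived mice, against 8.15, 8.46 and 9.71 in control mice. The groups overlapped through control mouse 14 alone, the next control being at 8.73. The difference was 0.45 ± 0.17 and did not pass (limma, adjusted p = 0.128). Without mouse 14 it was 0.63 ± 0.096 and passed (adjusted p = 0.000317). With all mice and sample number as a covariate it was 0.63 ± 0.17 and also passed (adjusted p = 0.0227). Mouse 14 was also the control with the lowest Cirbp and the highest Hsph1. Cirbp without it was at -0.54 ± 0.071 (adjusted p = 7.45e-05) and the Rbm3/Rbm3-ps probe set at -0.88 ± 0.067 (adjusted p = 7.13e-06).

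The genes whose pattern was most like that of Cirbp were sought among 5573 genes with a mean log2 level of at least 6, as a description. Over all 14 arrays, where the difference between groups sets most of the likeness, they were the copper transporter gene Atp7b (r = 0.971), the Wnt receptor gene Fzd4 (0.962), Nat8f2 (0.943), Tbcel (0.938) and the nucleotide sugar transporter gene Slc35d2 (0.936). Their differences were -0.75, -0.42, -0.47, -0.45 and -0.93, each past the threshold. Over deviations of each mouse from its own group mean, the nearest were Rbmxl1 (r = 0.798), Atp7b (0.785), R3hdm4 (0.744), the endothelial receptor gene S1pr1 (0.744) and Cyp2d40 (0.728), of which Atp7b passed the test between groups. S1pr1, at -0.20, missed it (limma, adjusted p = 0.0611), but passed without sleep-deprived mouse 2 or 10 (0.0202 and 0.0349), among brighter genes alone (0.0325) and after a second quantile normalization (0.0434). The most opposite were Vapa (-0.797), Mon1a (-0.70) and Mup3 (-0.687). Atp7b was near the top of both rankings.

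For the Rbm3/Rbm3-ps probe set, the nearest over all 14 arrays were Hoga1, an enzyme of hydroxyproline breakdown (r = 0.978), Sqor, which oxidises sulfide (0.969), Ppm1k, the phosphatase that activates branched-chain amino acid breakdown (0.969), Ndrg2 (0.962) and the clock gene Per3 (0.961). Here too the difference between groups sets most of the likeness, so that their falls follow from the choice. Per3 fell by 1.03 ± 0.073, Ppm1k by 0.75 ± 0.056, Hoga1 by 0.68 ± 0.052, Sqor by 0.45 ± 0.057 and Ndrg2 by 0.19 ± 0.032. Over deviations from the group mean the nearest were Atad3a (0.82), Uroc1 (0.817), Atp6v1h (0.784), Setd1b (0.771) and Sqor (0.766). The most opposite were Grina (-0.851), Rps26 (-0.827) and Rin3 (-0.819). No gene stood among the nearest of both Cirbp and the probe set, and their own deviations had r = -0.0591 over 14 arrays. Nat8f2, Cyp2d40, Mup3 and Rps26 belong to families with near-identical copies, so their signals may be shared.

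In bulk liver, fewer cells of a type and less RNA per cell cannot be told apart. The liver label fitted the hepatocyte markers, with Alb at 13.31 in both groups. Of 9 measured, 2 were higher (Tat and Apoa1) and 0 lower, beside 3.88% and 4.62% of all genes. Markers of other cells are read beside the same shares. Of 6 endothelial genes 2 were higher, led by Lyve1 (1.13 ± 0.18, limma, adjusted p = 0.000422). So were 1 of 6 stellate, 1 of 5 cholangiocyte and 1 of 6 adipocyte genes. Of 5 lymphocyte genes 1 was lower, and 0 of 6 Kupffer and 0 of 6 neutrophil genes passed. In lists this short, 1 gene called does not show that a cell type changed. The summed linear signal of the endothelial list lay between 1268 and 1653 in sleep-deprived mice and between 1156 and 1473 in control mice. The ranges overlapped less for hepatocyte (50410 to 52390 against 48320 to 50650), cholangiocyte (99.87 to 186.5 against 81.87 to 105.5) and adipocyte genes (76.06 to 124.5 against 70.23 to 80.43). For lymphocyte and neutrophil genes the sleep-deprived range reached lower (67.0 to 86.9 against 67.08 to 95.72, and 50.5 to 58.71 against 51.34 to 65.43). Shifts of these sums were not tested. Erythroid markers were not analysed here. The part of these cells in the lower Cirbp and Rbm3/Rbm3-ps signals was not tested. Array medians lay between 3.443 and 3.491.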

How the data were processed

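The authors deposited log2 values for each probe set of 14 Affymetrix whole-transcript arrays, obtained with RMA, per the submitters' processing notes, from 100 ng of RNA per sample, per the labels' protocols. No source used here gives the RMA version, its software or a genome build. RMA compresses differences of dim genes, and arrays have no read depth. Probe sets (41345) were named through the platform annotation, with symbols checked by Entrez ID: 23521 had 1 symbol, 1814 several and 16010 none listed. The brightest per gene gave 22180 genes.

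Sleep-deprived minus control was fitted with limma (version 3.58.1, under R 4.3.3, using a trended eBayes, two-sided, Benjamini-Hochberg over all genes). The fit planned for Rbm3 could not be run on a probe set of its own, so the probe set shared with Rbm3-ps was fitted among all probe sets. Single values were tested by exact permutation over all splits or pairings, computed with numpy 2.4.6. Ranks and the adjustment over the relations came from scipy 1.17.1. The steps were tested on simulated data. Genes named were the members, Hsph1, up to 4 per list with the smallest adjusted p, those a background sentence needs, and the nearest by correlation. The nearest exclude predicted models and small RNAs. The members and lists were chosen with earlier results of these data known. Title numbers are not shared between groups, so no pairing was made. Alternatives were other eBayes settings, array weights, brighter genes alone, averaged or separate probe sets, other centring or normalization, sample number as a covariate and leaving out each mouse. The promoter windows are RefSeq's (GRCm38.p6).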

Additional observations from a re-analysis of the deposited data

Results flagged for a closer look

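Among 100 groups of 7 mice examined (50 features in 2 groups), 7 held a mouse that stood apart from the rest of its group by Dixon's criterion, where chance gives about 1 group in 20 for features chosen without regard to their values. That rate does not apply to genes chosen for tracking Cirbp or the probe set, and the cases are not independent. The values of Cirbp, Hsph1 and the Rbm3/Rbm3-ps probe set were not among them. Sleep-deprived mouse 6 was the mouse in 4 cases, of which Atad3a, Grina and Hoga1 were chosen for their correlation with the Rbm3/Rbm3-ps probe set, where the same mouse is highest of its group. It was lowest for Bag3, at 7.52 with the next at 7.89, and lowest for Grina, at 9.14 with the next at 9.39. It was highest for Hoga1, at 8.65 with the next at 8.47, and highest for Atad3a, at 7.60 with the next at 7.34. Mouse 6 also had the lowest Hsph1 of its group, and without it the probe set was at -0.927 and Cirbp at -0.515, both still past the threshold. Control mouse 14 was highest for Clock, at 9.71 with the next at 8.73. Control mouse 7 was highest for Hspb1, at 5.16 with the next at 4.90, and control mouse 9 lowest for Mon1a, at 6.78 with the next at 6.87.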

How the results depend on the processing

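The differences of Cirbp, the Rbm3/Rbm3-ps probe set and Hsph1 kept their direction and stayed past the threshold in all 69 alternatives run for them. Leaving out 1 mouse gave -0.555 to -0.494 for Cirbp, -0.927 to -0.851 for the probe set and 0.831 to 0.943 for Hsph1. The shift of Cirbp minus the probe set stayed between 0.296 and 0.412 (exact permutation p up to 0.0035). The correlations within groups were less stable. With 1 mouse left out, Cirbp with Hsph1 ranged from -0.381 to -0.0339 in sleep-deprived mice and from -0.694 to 0.27 in controls, the probe set with Hsph1 from -0.682 to -0.151 in sleep-deprived mice and from -0.865 to -0.457 in controls, and Cirbp with the probe set from -0.346 to 0.201 in sleep-deprived mice and from -0.00704 to 0.642 in controls. The last was 0.749 in controls after a second quantile normalization (exact permutation p = 0.0313), and the cause was not tested. Genes called numbered 1886, and 391 with a log2 difference of at least 0.5 also required. Of 1079 values of the other 47 named genes, 1038 kept direction and side of the threshold, 28 lost it, 12 gained it and 1 turned sign (Atad3a, 0.00175 without sleep-deprived mouse 1, and down to -0.074 without mouse 6, against -0.0209 with all mice). No paired analysis was possible because the title numbers run over both groups with none in common. Brighter genes alone and averaged probe sets were not run for the shared probe set, which belongs to no single gene.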
